A study of Mus musculus with 4 samples.

Results

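T-bet, EOMES, ZEB2 and RUNX3 are transcription factors known for their part in the effector state of CD8 T cells, and their genes Tbx21, Eomes, Zeb2 and Runx3 were followed here through CD8 T cells of mouse tumours and spleens that carried or lacked CD137. CD137 (4-1BB, gene Tnfrsf9) is a costimulatory receptor of the tumour necrosis factor receptor family. The 4 genes were taken by name from the 12763 genes of the single-cell table, and all 4 were present. They were described over the 4 libraries and by whether a cell held a value above 0 of Gzmk, Klrg1 or Havcr2. Gzmk encodes granzyme K, Klrg1 an inhibitory lectin receptor of effector cells, and Havcr2 the checkpoint receptor TIM-3.

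T-bet and EOMES are related T-box factors that both raise cytotoxic and interferon gamma genes. T-bet is known for short-lived effector cells, and EOMES for memory cells and for late exhausted cells. ZEB2 is a zinc finger repressor that acts downstream of T-bet in terminal effector cells, where it holds back memory genes. RUNX3 silences CD4 in the CD8 lineage and takes part in the cytotoxic programme and in tissue residence.

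The cells came from lethally irradiated C57BL/6 mice that had received mixed marrow of Cd4creCd137fl/flROSA26tomato and Cd137fl/flROSA26tomato donors and bore B16K1 melanoma under the skin. On day 21, CD8 T cells of 7 mice were pooled for each fraction and sorted by tomato. The groups were tumour CD137 minus (1262 cells), tumour CD137 plus (2766 cells), spleen CD137 minus (2464 cells) and spleen CD137 plus (473 cells), with 1 library each. CD137 minus and CD137 plus cells shared their hosts, but their donors also differed in Cd4cre, so CD137 status and Cre cannot be told apart. The labels disagree on which tomato fraction is CD137 minus, and the groups follow the CD137 status in the sample labels. Tnfrsf9, the targeted gene, stood at 57.5 summed corrected counts per 1000000 (CPM) in tumour CD137 minus cells and 421 CPM in tumour CD137 plus cells, and at 2.34 CPM in spleen CD137 minus cells and 16.2 CPM in spleen CD137 plus cells. Whether these reads lie in the deleted part of the gene is not given, so the values check the labels only in part.

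Undoing the natural log of the deposited values and taking away 1 left whole numbers, called corrected counts here because their totals per cell lay in a narrow range in each library. Median totals were 4833.5, 3701.5, 3973 and 5344 per cell in tumour CD137 minus, tumour CD137 plus, spleen CD137 minus and spleen CD137 plus cells. Cd8b1 was found in 97.6% to 98.5% of the cells of each library. Melanoma markers summed to 34.3 and 33.4 CPM in the 2 tumour libraries and to 1.02 and 0 CPM in the 2 spleen libraries. The macrophage genes Lyz2, C1qa and C1qb were at 0 in both spleen libraries. In the library order above, the whole macrophage and monocyte list summed to 181, 282, 121 and 104 CPM. The B cell list summed to 359, 533, 432 and 347 CPM, and the CD4 and regulatory T cell list to 253, 300, 27.0 and 28.4 CPM. NK cell markers summed to 150, 201, 54.5 and 92.4 CPM, and dendritic cell markers to 239, 255, 192 and 186 CPM. Which cells carried them was not tested. Across all cells, 19 barcodes occurred in more than 1 library. With 1 library a group no test between conditions could be made. Every interval below is a 95% interval for counting error only: exact Clopper-Pearson for a share of cells, and exact conditional binomial for a ratio. A ratio is given as log2 of CPM plus a pseudocount of 1 CPM, and a gene is called different at 0.5 in size, higher or lower. The ratio intervals were computed without the pseudocount, so at low CPM they belong to a ratio larger in size than the one printed.

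In the mouse genome build GRCm38 (GENCODE M21), Tbx21 (ENSMUSG00000001444.2) spans chr11:97098071-97115331 on the minus strand and Eomes (ENSMUSG00000032446.14) spans chr9:118478212-118486132 on the plus strand. Zeb2 (ENSMUSG00000026872.17) spans chr2:44983632-45117395 on the minus strand and Runx3 (ENSMUSG00000070691.10) spans chr4:135120652-135177990 on the plus strand. Antisense genes overlap Zeb2 (Zeb2os), Eomes (Gm33460) and Runx3 (Gm16224). Zeb2os was found in 9 tumour CD137 plus cells and in none of the other 3 libraries, and Gm33460 in at most 19 cells of a library, so reads assigned to them were few beside those of Zeb2 and Eomes. RefSeq promoter windows (GRCm38.p6) of 250 bases before the most upstream listed start are given for Tbx21 and Zeb2, which were found in the same cells more often than their single shares imply, and for Runx3, whose window holds matches to the motif of its own family. Other pairs of the factors, such as Zeb2 with Runx3, were also found together more often than their single shares imply in every library. Capitals mark matches, on either strand, to the RUNX motif TGTGGT, the ZEB motif CAGGTG or the T-box motif GGTGTGA.
Tbx21, chr11:97115332-97115581, minus strand: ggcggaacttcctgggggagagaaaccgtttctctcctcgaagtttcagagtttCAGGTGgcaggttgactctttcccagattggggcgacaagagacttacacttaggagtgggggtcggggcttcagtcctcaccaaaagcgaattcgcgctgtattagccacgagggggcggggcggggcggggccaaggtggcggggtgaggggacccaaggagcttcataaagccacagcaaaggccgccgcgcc
Zeb2, chr2:45117443-45117692, minus strand: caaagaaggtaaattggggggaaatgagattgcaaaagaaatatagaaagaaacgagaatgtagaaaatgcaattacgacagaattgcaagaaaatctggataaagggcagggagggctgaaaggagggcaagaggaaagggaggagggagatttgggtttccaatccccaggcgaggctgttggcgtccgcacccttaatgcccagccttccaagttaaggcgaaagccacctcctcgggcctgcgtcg
Runx3, chr4:135120395-135120644, plus strand: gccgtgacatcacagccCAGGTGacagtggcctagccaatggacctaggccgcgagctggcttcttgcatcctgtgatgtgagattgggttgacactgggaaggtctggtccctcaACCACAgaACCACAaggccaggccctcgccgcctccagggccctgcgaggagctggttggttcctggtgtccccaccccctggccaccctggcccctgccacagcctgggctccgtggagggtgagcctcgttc

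The Runx3 window held 2 RUNX matches on the strand opposite to the gene, from 134 to 129 and from 126 to 121 bases before the start, and 1 ZEB match. The Tbx21 window held 1 ZEB match, from 196 to 191 bases before the start, and the Zeb2 and Eomes windows held no match to any of the 3 motifs. The letters are common: of 32851 such windows in the RefSeq table, 14.0% held the RUNX motif, 17.2% the ZEB motif and 3.33% the T-box motif. None of the 3 motifs overlapped another in these windows.

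By share of cells, Tbx21 and Zeb2 had the same order over the 4 libraries, and Eomes and Runx3 had others. Tbx21 was found in 25.7% of tumour CD137 minus cells (interval 23.3% to 28.2%) and 31.1% of tumour CD137 plus cells (29.4% to 32.9%), against 8.69% of spleen CD137 minus cells (7.60% to 9.87%) and 17.1% of spleen CD137 plus cells (13.8% to 20.8%). Its levels were 81.7, 134, 27.6 and 49.5 CPM in the same order, and none of the 4 intervals of its shares overlapped. Tbx21 was therefore highest in tumour CD137 plus cells and lowest in spleen CD137 minus cells by both measures. These intervals hold counting error only, and the libraries differ in totals per cell. How many other genes have 4 intervals that do not overlap was not tested, so this is not shown to be particular to Tbx21.

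Eomes had its largest share in spleen CD137 plus cells. It was found in 11.0% of tumour CD137 minus cells, 11.5% of tumour CD137 plus cells, 11.4% of spleen CD137 minus cells and 17.1% of spleen CD137 plus cells, at 34.0, 42.6, 38.9 and 52.7 CPM. Before thinning the 3 lower shares did not differ beyond their intervals, and the share in spleen CD137 plus cells became 10.8% once every cell was thinned to 2900 corrected counts, against 7.05%, 9.98% and 8.16% in tumour CD137 minus, tumour CD137 plus and spleen CD137 minus cells.

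Zeb2 was nearly missing from 1 library. It was found in 7.92% of tumour CD137 minus cells (6.49% to 9.55%), 8.13% of tumour CD137 plus cells (7.14% to 9.22%) and 6.55% of spleen CD137 plus cells (4.50% to 9.17%), whereas only 27 of 2464 spleen CD137 minus cells held it (1.10%, 0.723% to 1.59%). The CPM values were 25.5 in tumour CD137 minus, 26.9 in tumour CD137 plus, 3.87 in spleen CD137 minus and 25.5 in spleen CD137 plus cells. The first 3 shares did not differ beyond their intervals.

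Runx3 was found in 33.5% of tumour CD137 minus cells, 27.2% of tumour CD137 plus cells, 22.7% of spleen CD137 minus cells and 34.0% of spleen CD137 plus cells, at 114, 99.0, 68.9 and 100.1 CPM. The 2 libraries with the largest totals per cell had the largest shares, and after thinning the shares were 23.5%, 21.9%, 16.4% and 24.3%. No group of cells that should lack these genes was large enough to give the share that free RNA produces.

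**Figure D1:**
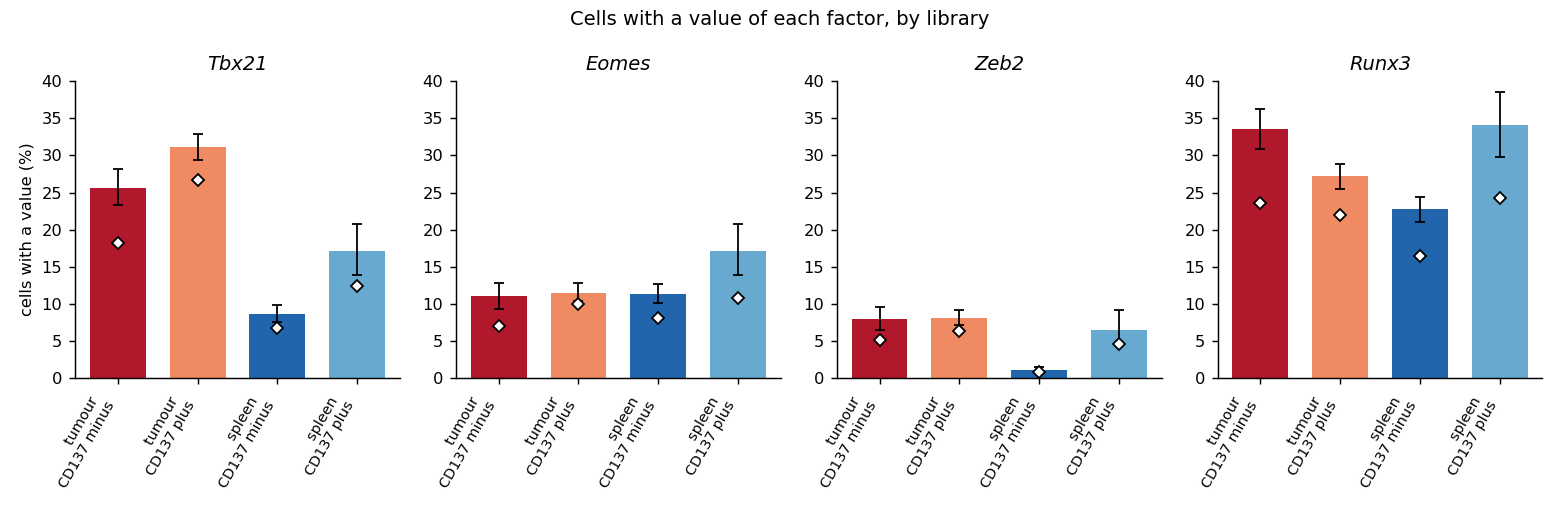
Share of cells (y axis, %) with a value of Tbx21, Eomes, Zeb2 or Runx3 in each of the 4 libraries, with exact 95% binomial intervals (bars with whiskers) and the share after thinning each cell to 2900 corrected counts (white diamonds). Tbx21 is lowest in spleen CD137 minus cells at 8.69%, Zeb2 is at 1.10% in that library and between 6.55% and 8.13% in the other 3, and Eomes lies between 11.0% and 17.1%.

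In the tumour, Tbx21 was lower in CD137 minus cells. It stood at 81.7 CPM in tumour CD137 minus cells and 134 CPM in tumour CD137 plus cells, a log2 ratio of -0.71 (interval -0.86 to -0.56). Eomes (-0.32, interval -0.57 to -0.09), Zeb2 (-0.07, -0.37 to 0.21) and Runx3 (0.21, 0.07 to 0.35) stayed under the limit. So 1 of the 4 factors was past 0.5, where 7.14% of 5353 measured genes were past it in either direction. The median of all measured genes was -0.13, and relative to it Tbx21 stood at -0.57 and Runx3 at 0.34. Scaled to that median, 196 genes were higher and 124 lower, in place of 91 and 291.

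Lists of genes known to be linked to each factor were read in the same comparison. Of 15 measured genes linked to T-bet, 9 were lower and 0 higher in tumour CD137 minus than in tumour CD137 plus cells (all measured genes: 5.44% lower, 1.7% higher). Their median log2 ratio was -0.56. The chemokine Ccl3 had 149 CPM in CD137 minus and 392 CPM in CD137 plus tumour cells (log2 -1.39), and Ccl4 had 313 and 733 CPM (-1.22). The inhibitory receptor gene Klrc1 had a log2 ratio of -1.12. The cytotoxic protease gene Gzmb had 124 CPM in CD137 minus and 259 CPM in CD137 plus cells (-1.06), and the cytokine gene Ifng 201 and 375 CPM (-0.89). Of 14 measured genes linked to EOMES, 7 were lower and 0 higher, among them Gzmk with 97.4 CPM in CD137 minus and 178 CPM in CD137 plus cells and the checkpoint gene Tigit with 254 and 412 CPM. The lists share Ccl5, Cxcr3, Ifng, Il2rb, Klrc1 and Prf1, so their counts are not separate evidence. Of 9 measured genes of the opposing or memory factors, 5 were higher and 0 lower: Lef1, a partner of TCF1, had 180 CPM in CD137 minus and 113 CPM in CD137 plus cells (0.67), followed by Satb1 (0.64), Bach2 (0.59), Id3 (0.58) and Foxp1 (0.52). Of 12 measured genes of a list named effector programme partners, Irf8 (-0.73), Nr4a2 (-0.55), Tox (-0.53) and Bhlhe40 (-0.52) were lower and 0 were higher. Tox is also known as an exhaustion-linked factor and Nr4a2 as one induced by the T cell receptor, so that list does not mark effector cells alone. None of the 6 measured RUNX family members and partners was past the limit in either direction. Of 7 measured genes raised by ZEB2, Gzmb and Cx3cr1 were lower, and of 9 lowered by ZEB2, Id3 was higher. Of 9 measured genes raised by RUNX3, Gzmb, Ifng and Prf1 were lower, and none of 5 lowered by it was past the limit. Gzmb, Cx3cr1, Ifng and Prf1 also stand in the list linked to T-bet, and Id3 among the opposing or memory factors. The ZEB2 and RUNX3 counts are thus not separate evidence. Of 15 upstream signal genes, the interferon gamma receptor gene Ifngr2 was higher (22.2 CPM in CD137 minus and 12.6 CPM in CD137 plus cells).

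In the spleen, 3 of the 4 factors were lower in CD137 minus cells, and Zeb2 by the widest margin of the 4. Zeb2 had 3.87 CPM in spleen CD137 minus cells and 25.5 CPM in spleen CD137 plus cells, a log2 ratio of -2.45 (interval -3.34 to -2.12), which came to -1.36 with a pseudocount of 10 CPM. Tbx21 had 27.6 and 49.5 CPM (-0.82, -1.16 to -0.52), Runx3 had 68.9 and 100.1 CPM (-0.53, -0.75 to -0.32), and Eomes, with 38.9 and 52.7 CPM, stayed under the limit (-0.43, -0.73 to -0.14). Across 5183 measured genes 11.7% were past the limit, 10.3% lower and 1.41% higher, and the median was -0.08. With scaling to that median Runx3 came to -0.46, and with a pseudocount of 10 CPM to -0.48, both under the limit.

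The genes linked to T-bet and ZEB2 were lower in the same comparison. Of 16 measured genes linked to T-bet, 15 were lower in spleen CD137 minus than in spleen CD137 plus cells, with a median of -1.51. Genes under 20 CPM in CD137 minus cells, such as Klrg1, Cx3cr1 and Zeb2 itself, were measured through CD137 plus cells alone. Such genes could be counted only as lower, so the counts and medians here are partly set by the filter. Ccl4 had 19.9 CPM in CD137 minus and 133 CPM in CD137 plus spleen cells (-2.68), Klrg1 4.37 and 24.7 CPM (-2.26), and the fractalkine receptor gene Cx3cr1 6.82 and 33.2 CPM (-2.13). Of 9 measured genes raised by ZEB2, 6 were lower, with a median of -1.53, among them Gzmb (12.3 CPM in CD137 minus and 54.3 CPM in CD137 plus cells) and Gzma (74.1 and 290.3 CPM). Klrg1, Cx3cr1, S1pr5 and Gzmb stand in both lists. Of 11 measured genes linked to EOMES, 8 were lower, led by Gzmk with 7.02 CPM in CD137 minus and 49.1 CPM in CD137 plus cells (-2.64). Of 9 measured genes raised by RUNX3, 5 were lower and 2, Ccr9 (0.64) and Itgae (0.51), which encode a gut homing receptor and an integrin of resident cells, were higher. Gzmb, Ifng, Il2rb and Prf1 stand in both the RUNX3 and the T-bet list. Of 10 measured opposing or memory factors, 1, Bach2, was lower (-0.53) and 0 were higher. Among upstream signals, 3 of 14 were lower: the interleukin 2 receptor chain gene Il2rb (-0.89), Rptor (-0.72) and Stat5a (-0.51). Runx2 was the 1 lower of 6 RUNX family members and partners (-1.11).

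Tbx21 was higher in the tumour than in the spleen with and without CD137. Its log2 ratio was 1.53 between tumour CD137 minus and spleen CD137 minus cells and 1.42 between tumour CD137 plus and spleen CD137 plus cells. Zeb2 was higher by 2.45 in the tumour among CD137 minus cells (1.36 with a pseudocount of 10 CPM), and its ratio was 0.07 among CD137 plus cells. Runx3 had ratios of 0.72 and -0.02, and Eomes of -0.19 and -0.30. Genes past the limit in either direction were common in these comparisons, at 36.5% of 5412 measured genes among CD137 minus cells and 41.8% of 5710 among CD137 plus cells. The other RUNX family gene that was measured and past the limit in both, Runx2, had 65.6 CPM in tumour CD137 minus and 9.77 CPM in spleen CD137 minus cells, and 77.4 CPM in tumour CD137 plus and 22.3 CPM in spleen CD137 plus cells. Among the opposing factors Tcf7 was lower by 1.68 and 1.98 on the log2 scale, and Lef1 by 1.43 and 1.71, in CD137 minus and CD137 plus cells.

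Eomes was higher in tumour cells that held Gzmk. In tumour CD137 minus cells Eomes stood at 77.8 CPM in the 192 cells with Gzmk and 25.9 CPM in the 1070 cells without it (log2 1.55, interval 1.16 to 2.01). In tumour CD137 plus cells it stood at 75.3 CPM in the 644 cells with Gzmk and 32.7 CPM in the 2122 without (1.18, 0.92 to 1.48). The Eomes share after thinning was 14.6% with Gzmk and 5.70% without it in CD137 minus cells, and 17.9% with and 7.59% without it in CD137 plus cells. In the spleen the ratio was -0.51 (-2.81 to 1.03) in CD137 minus cells, where 3 of 29 cells with Gzmk held Eomes, and 0.24 (-0.80 to 1.13) in CD137 plus cells, where 7 of 37 did. Both spleen intervals span 0. Genes past the limit between cells with and without Gzmk made up 27.7% and 8.68% of those measured in tumour CD137 minus and tumour CD137 plus cells, and 56.7% and 53% in spleen CD137 minus and spleen CD137 plus cells.

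The other factors were read by Gzmk in the same way, and differences between libraries or tissues were not tested. Tbx21 was higher in spleen cells with Gzmk, at 208 CPM with and 25.5 CPM without it in CD137 minus cells (log2 2.98) and at 123 and 43.7 CPM in CD137 plus cells (1.47). In the tumour its ratio was 0.86 in CD137 minus cells (132 CPM with and 72.4 CPM without) and 0.13 in CD137 plus cells (143 and 131 CPM). Zeb2 in tumour CD137 minus cells was lower with Gzmk, at 9.59 CPM with and 28.4 CPM without it (-1.47, -2.72 to -0.60), on 9 cells of 192. In tumour CD137 plus cells it had 31.8 CPM with and 25.4 CPM without Gzmk (0.31, -0.08 to 0.71). In the spleen Zeb2 had 72.2 CPM with and 3.09 CPM without Gzmk in CD137 minus cells (4.16, or 2.65 with a pseudocount of 10 CPM), and 67.1 and 22.3 CPM in CD137 plus cells (1.55). Runx3 ratios were 0.18 and 0.14 in the tumour and 1.16 and 0.76 in the spleen, in CD137 minus and CD137 plus cells.

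Zeb2 and Tbx21 were higher in spleen cells that held Klrg1, and Eomes was not. Zeb2 was found in 7 of the 21 spleen CD137 minus cells with Klrg1 and 20 of the 2443 without it, and in 15 of the 27 spleen CD137 plus cells with Klrg1 and 16 of the 446 without it. The levels were 141 CPM with and 2.77 CPM without Klrg1 in CD137 minus cells (log2 5.24, 4.52 to 6.73), and 248 and 12.9 CPM in CD137 plus cells (4.17, 3.51 to 5.04). Tbx21 followed, with 296 CPM with and 25.4 CPM without Klrg1 in spleen CD137 minus cells (3.49) and 173 and 42.4 CPM in spleen CD137 plus cells (2.00). Eomes did not: 2 of 21 and 1 of 27 spleen cells with Klrg1 held it, and its ratios were -0.58 (-3.65 to 1.26) and -2.72 (-8.19 to -0.37) in CD137 minus and CD137 plus cells. These spleen groups are small, and 63.4% and 55.1% of measured genes were past the limit in them.

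In the tumour the Zeb2 and Tbx21 ratios by Klrg1 were smaller, a difference that was not tested. Zeb2 had 41.5 CPM with and 25.0 CPM without Klrg1 in tumour CD137 minus cells (0.71, -0.61 to 1.81) and 67.7 and 25.7 CPM in tumour CD137 plus cells (1.37, 0.66 to 2.06). Tbx21 had ratios of 0.69 and 0.16, and the second came to 0.62 with Klrg1 status set at 2 or more corrected counts. Eomes had 35.6 CPM with and 33.9 CPM without Klrg1 in CD137 minus cells (0.07, -1.39 to 1.22) and was higher with Klrg1 in CD137 plus cells (84.6 and 41.4 CPM, 1.01, 0.39 to 1.61). Runx3 was lower with Klrg1 in tumour CD137 plus cells, at 60.9 CPM with and 100.1 CPM without it (-0.71, -1.48 to -0.05), and had a ratio of 0.26 in tumour CD137 minus cells. Between tumour cells with and without Klrg1, 48.4% of measured genes in CD137 minus and 34.5% in CD137 plus cells were past the limit.

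Cells with the TIM-3 gene had more Tbx21 and Zeb2, while the Eomes intervals spanned 0. Havcr2 was found in 117 tumour CD137 minus cells, 356 tumour CD137 plus cells, 0 of 2464 spleen CD137 minus cells (with 3 cells as the limit that a count of 0 allows, a share of up to 0.122% with a value) and 6 spleen CD137 plus cells, so only the tumour was compared. Tbx21 had 150 CPM with and 74.5 CPM without Havcr2 in CD137 minus cells (1.01, 0.66 to 1.35) and 187 and 126 CPM in CD137 plus cells (0.57, 0.37 to 0.77). Zeb2 had 43.7 CPM with and 23.6 CPM without it in CD137 minus cells (0.86, 0.21 to 1.52) and 45.1 and 24.0 CPM in CD137 plus cells (0.88, 0.47 to 1.32). Eomes ratios were 0.27 and -0.32, and Runx3 ratios 0.48 and 0.18. With Havcr2 status set at 2 or more corrected counts, Tbx21 came to 0.46 in CD137 minus cells, under the limit, and Runx3 to 0.99 and 0.95, past it, in CD137 minus and CD137 plus cells. Cells with Havcr2 held values of more genes, a median of 1885 with and 1411 without it in CD137 minus cells and 1720 and 1266.5 in CD137 plus cells, and the median ratio of all measured genes was 0.39 and 0.25. The part of this in the Tbx21 and Zeb2 ratios was not tested. Thinned shares kept the direction, with Tbx21 in 32.5% of cells with and 16.7% without Havcr2 in CD137 minus cells, and in 37.4% and 25.1% in CD137 plus cells. Measured genes past the limit made up 45.3% and 25.8%.

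**Figure D2:**
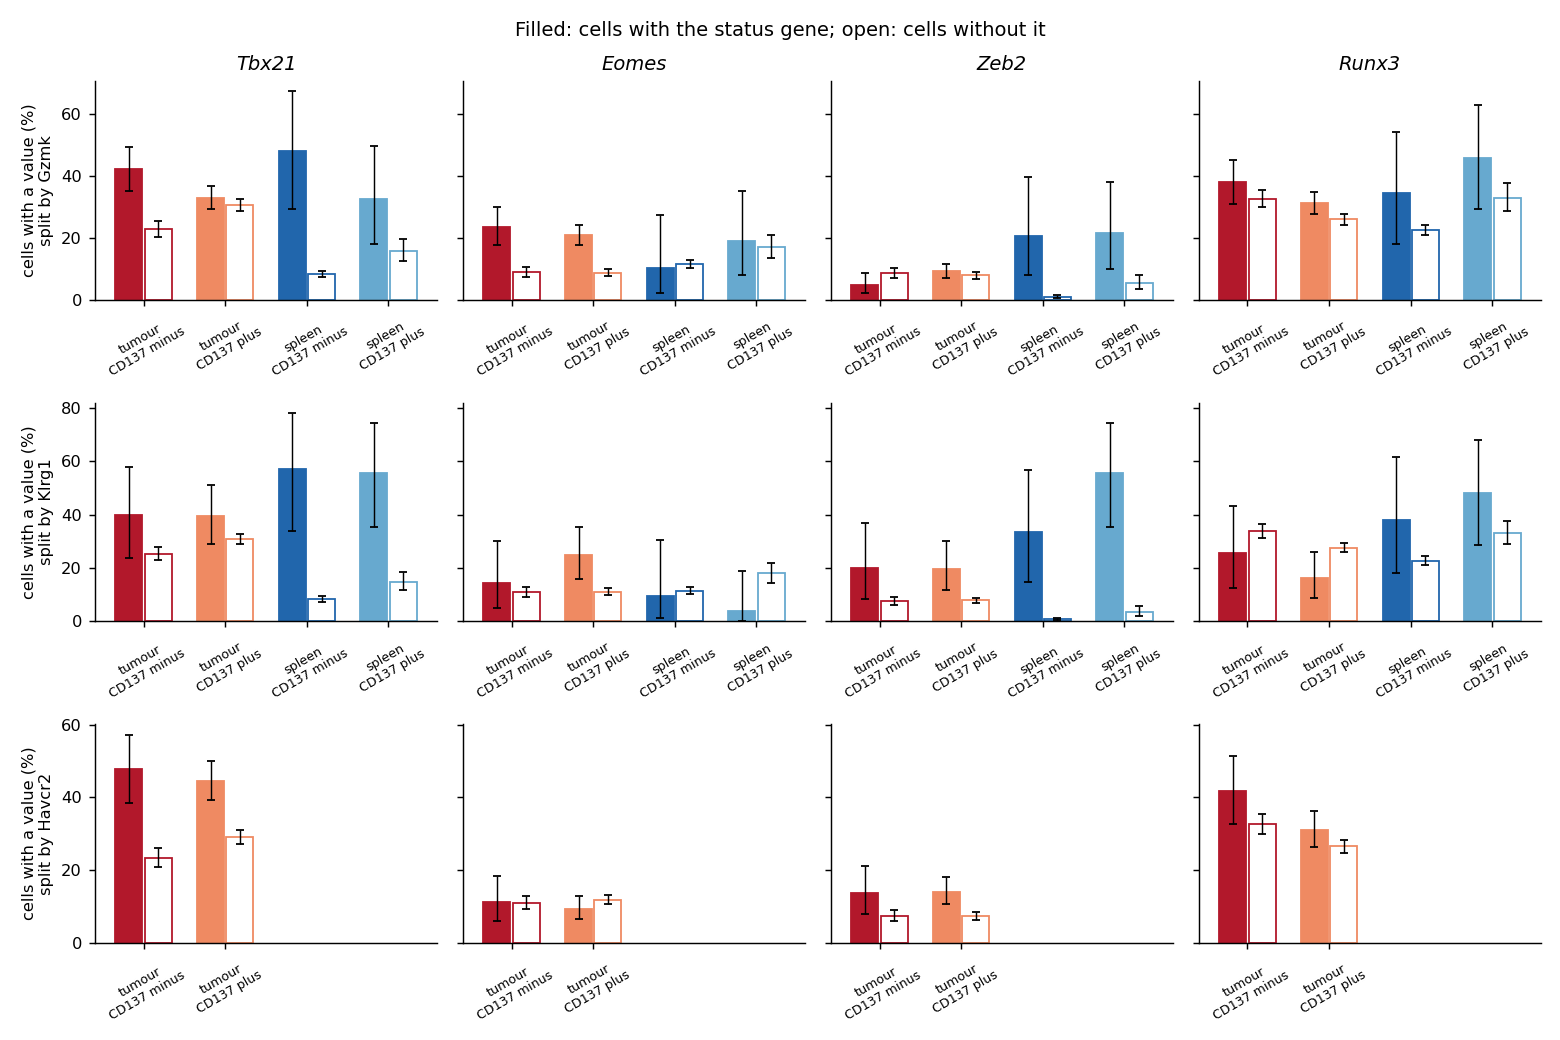
Share of cells (y axis, %) with a value of each factor, in cells with (filled) and without (open) a value of Gzmk, Klrg1 or Havcr2 (rows), by library, with exact 95% binomial intervals. Eomes is higher with Gzmk in both tumour libraries (23.4% against 8.79% in CD137 minus and 20.8% against 8.72% in CD137 plus cells), and Zeb2 is higher with Klrg1 in both spleen libraries (33.3% against 0.819% and 55.6% against 3.59%).

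The balance of Tbx21 and Eomes differed between the status groups of the tumour, which was not tested. Among cells with Havcr2, Tbx21 without Eomes was held by 41.0% in tumour CD137 minus and 41.3% in tumour CD137 plus, and 4.27% and 5.90% held Eomes without Tbx21. Among cells with Gzmk, 32.3% and 27.0% held Tbx21 alone and 13.5% and 14.9% held Eomes alone. Among cells with none of the 3 status genes, 18.6% in CD137 minus and 26.0% in CD137 plus held Tbx21 alone and 7.07% and 6.59% Eomes alone. Cells that hold both can be missed in such data, since most positive cells had a corrected count of 1: 63.6% and 59.4% of Tbx21-positive cells in tumour CD137 minus and tumour CD137 plus.

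The lower Tbx21 of tumour CD137 minus cells was sought in 3 classes of cells, those with Havcr2, those with Gzmk or Klrg1 but no Havcr2, and those with none of the 3. CD137 minus cells were spread over these classes as 117, 169 and 976 cells, and CD137 plus cells as 356, 589 and 1821. In the class with none of the 3, Tbx21 had 66.2 CPM in CD137 minus and 121 CPM in CD137 plus cells (log2 -0.86, -1.07 to -0.68). In the class with Gzmk or Klrg1 it had 121 and 138 CPM (-0.19, -0.53 to 0.14), and in the Havcr2 class 150 and 187 CPM (-0.31, -0.68 to 0.05), with both intervals spanning 0. With classes set at 2 or more corrected counts the Havcr2 class came to -0.83. The differences between classes were not tested. Giving the CD137 minus library the class weights of the CD137 plus library moved the Tbx21 ratio to -0.58. Among cells without Pdcd1, the gene of the checkpoint receptor PD-1, Tbx21 had 40.9 CPM in 748 tumour CD137 minus cells and 86.4 CPM in 1239 tumour CD137 plus cells; among cells with it, 140 CPM in 514 CD137 minus and 171 CPM in 1527 CD137 plus cells.

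For the other 3 factors, 1 class ratio in the tumour was past the limit. Zeb2 in the class with Gzmk or Klrg1 had 9.81 CPM in tumour CD137 minus and 31.0 CPM in tumour CD137 plus cells (-1.57, -2.93 to -0.60), on 8 and 54 positive cells, while its ratios were -0.04 in the Havcr2 class and 0.24 in the class with none. Eomes ratios were 0.20, -0.18 and -0.28, and Runx3 ratios 0.47, 0.24 and 0.18, in the classes with Havcr2, with Gzmk or Klrg1, and with none. Measured genes past the limit made up 24.1%, 15.8% and 10.7% in these 3 classes. In the spleen only the class with none of the 3 had enough cells, 2426 CD137 minus and 421 CD137 plus. There Zeb2 had 2.27 CPM in CD137 minus and 11.7 CPM in CD137 plus cells (-1.96, -3.26 to -1.49, and -0.83 with a pseudocount of 10 CPM), on 16 and 13 positive cells, Tbx21 24.7 and 38.8 CPM (-0.63), Runx3 67.4 and 94.9 CPM (-0.49) and Eomes 39.0 and 53.3 CPM (-0.44), where 12.2% of measured genes were past the limit. Zeb2 itself was under the 20 CPM that counted as measured there.

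**Figure D3:**
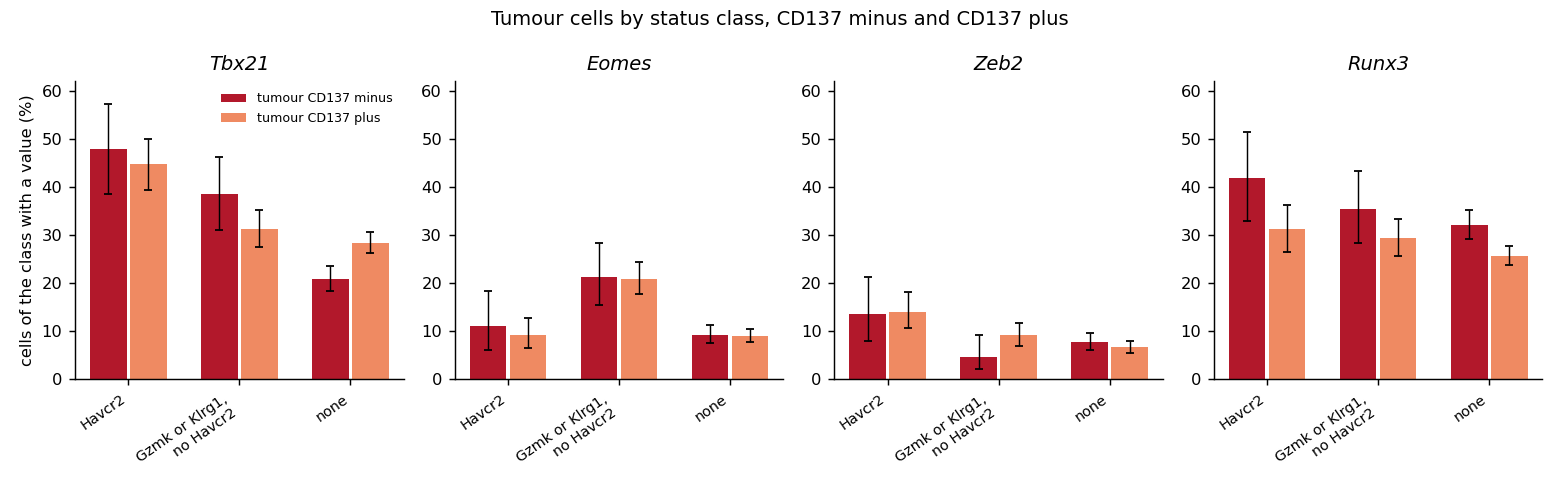
Share of tumour cells (y axis, %) with a value of each factor in the 3 status classes, CD137 minus (dark) and CD137 plus (light), with exact 95% binomial intervals. For Tbx21 the shares are 20.8% in CD137 minus and 28.4% in CD137 plus cells of the class with none of the 3 genes, and 47.9% and 44.7% in the Havcr2 class. The shares are not thinned, and the libraries differ in totals per cell. By level, Tbx21 in the Havcr2 class had 150 CPM in CD137 minus and 187 CPM in CD137 plus cells.

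Tbx21 and Zeb2 also differed by other markers of cell state. Cells with Tcf7, the gene of the memory and stemness factor TCF1, had less Tbx21 than cells without it in 3 libraries: 49.5 against 95.7 CPM in tumour CD137 minus (log2 -0.94), 83.4 against 146 CPM in tumour CD137 plus (-0.80) and 39.0 against 79.2 CPM in spleen CD137 plus cells (interval -1.56 to -0.47). In spleen CD137 minus cells Tbx21 had 25.7 CPM with and 31.4 CPM without Tcf7, under the limit (-0.28, -0.65 to 0.08). Zeb2 had log2 ratios of -1.47, -0.85, -1.55 and -1.49 between cells with and without Tcf7 in tumour CD137 minus, tumour CD137 plus, spleen CD137 minus and spleen CD137 plus cells. In the same order Eomes had 0.15, 0.49, 0.24 and 0.23, and Runx3 -0.36, -0.21, 0.03 and -0.01. Cells with Cx3cr1, a chemokine receptor of circulating effector cells, had more Zeb2 in every library, with ratios of 1.17, 1.54, 5.24 and 3.85, and less Eomes, with -0.42, -0.89, -1.17 and -1.46. Only in tumour CD137 plus cells did that Eomes interval leave out 0 (-1.65 to -0.28). Tbx21 by Cx3cr1 had 0.93, 0.42, 3.29 and 1.85 in the same order, the second under the limit. Cells with Itgae, which encodes the CD103 integrin of resident cells, had Eomes ratios of -3.24 (-8.93 to -1.13) in tumour CD137 minus, -0.76 (-1.86 to 0.11) in tumour CD137 plus, -0.70 (-1.49 to -0.04) in spleen CD137 minus and -2.78 (-8.26 to -0.44) in spleen CD137 plus cells, and the second interval spans 0. These rest on few positive cells: 1 of 71, 9 of 105, 13 of 186 and 1 of 26 cells with Itgae held Eomes. Tbx21 by Itgae was also lower in tumour CD137 minus cells, at -1.51 (-2.62 to -0.65), on 7 of 71 cells. It had -0.42, -0.27 and 0.03 in tumour CD137 plus, spleen CD137 minus and spleen CD137 plus cells. Zeb2 by Itgae had -1.12, -0.60 and -1.11 in tumour CD137 minus, tumour CD137 plus and spleen CD137 minus cells, with each interval spanning 0. In spleen CD137 plus, 0 of 26 cells with Itgae held Zeb2. Runx3 ratios by Itgae lay between -0.31 and 0.00. In tumour CD137 minus, tumour CD137 plus, spleen CD137 minus and spleen CD137 plus cells, genes past the limit made up 21.5%, 20.3%, 1.34% and 25% of those measured by Tcf7, 45.5%, 24.7%, 58% and 55.7% by Cx3cr1, and 29.7%, 23.2%, 10.9% and 44.9% by Itgae.

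Tbx21 and Zeb2 were found in the same cells more often than the product of their shares in all 4 libraries. Both were held by 42 of 1262 tumour CD137 minus cells, 94 of 2766 tumour CD137 plus cells, 12 of 2464 spleen CD137 minus cells and 14 of 473 spleen CD137 plus cells, which is 1.64, 1.34, 5.12 and 2.64 times the product. The part of unequal depth between cells in these ratios was not tested. Such an excess was not particular to Tbx21 and Zeb2. In the same library order Tbx21 with Runx3 gave 1.10, 1.06, 1.38 and 1.31, and Zeb2 with Runx3 gave 1.28, 1.24, 1.47 and 1.14. Eomes with Runx3 gave 1.09, 1.18, 1.00 and 1.38, and Eomes with Zeb2 gave 1.09, 1.27, 0.65 and 0.94. Tbx21 with Eomes gave 1.18 and 0.90 in tumour CD137 minus and CD137 plus cells and 2.25 and 1.73 in spleen CD137 minus and CD137 plus cells. The largest correlation across cells was 0.20, for Tbx21 and Zeb2 in spleen CD137 minus cells, which is weak in such sparse counts.

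**Figure D4:**
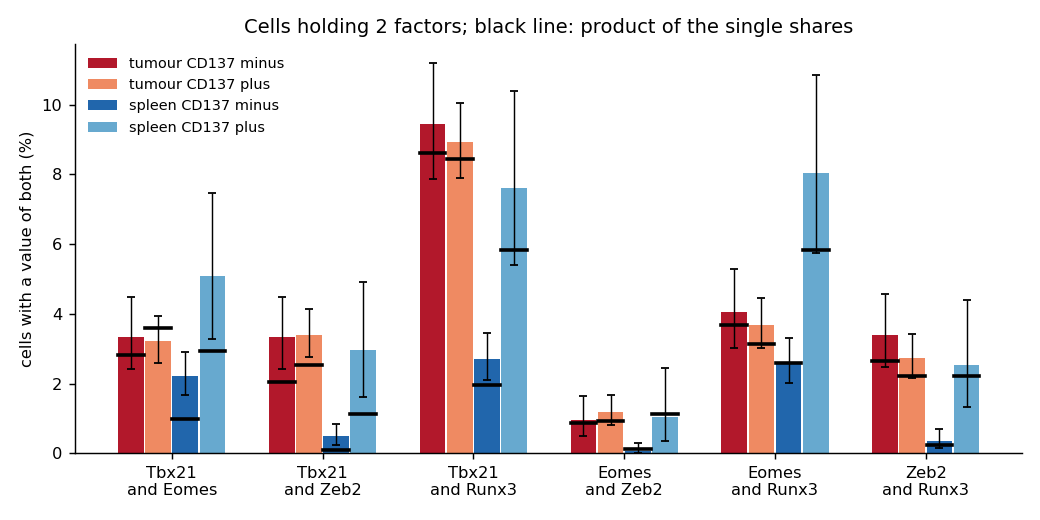
Share of cells (y axis, %) holding values of both genes of each pair, by library, with exact 95% binomial intervals and the product of the single shares (black lines). For Tbx21 and Zeb2 the observed share lies above the product in all 4 libraries, at 3.33% against 2.03% in tumour CD137 minus and 0.487% against 0.0952% in spleen CD137 minus cells. It also lies above the product in all 4 libraries for Tbx21 and Runx3 and for Zeb2 and Runx3.

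Genes linked to ZEB2 were read in cells with and without a Zeb2 value. In spleen cells all measured genes of the list raised by ZEB2 were higher in cells with Zeb2, 9 of 9 in CD137 minus and 10 of 10 in CD137 plus, where 41.6% and 31.1% of all measured genes were higher. Gzma, a granzyme gene, had 2352 CPM in the 27 spleen CD137 minus cells with Zeb2 and 51.2 CPM in those without it. S1pr5, a sphingosine receptor for egress from tissue, had 245 and 6.06 CPM, and Klf2, a factor of circulating cells, 1401 and 970 CPM. Genes under 20 CPM in cells without Zeb2, such as S1pr5, were measured through cells with Zeb2 alone and could be counted only as higher. Klrg1 and Cx3cr1 stand in the raised list, and Zeb2 by both is given above, so these counts are not separate evidence. Of the genes lowered by ZEB2, 8 of 9 in CD137 minus and 7 of 9 in CD137 plus spleen cells were lower in cells with Zeb2, where 18.4% and 24.4% of genes were lower. Tcf7 stands in the lowered list, and Zeb2 by Tcf7 is given above. In the tumour 6 of 8 and 4 of 8 genes of the raised list were higher in cells with Zeb2 in CD137 minus and CD137 plus cells, against 41.9% and 19.8% of all measured genes. In the same list 2 of 8 and 1 of 8 were lower, against 4.54% and 1.67% of all measured genes. Of the lowered list, 4 of 9 and 2 of 9 were lower, against 4.54% and 1.67%. Klf2 was lower with Zeb2 there, with 344 CPM in cells with Zeb2 and 1628 CPM in cells without it in tumour CD137 minus, and 655 and 1178 CPM in tumour CD137 plus. Tumour cells with Zeb2 held values of more genes than those without it, with medians of 1954.5 and 1416 in CD137 minus and 1674 and 1294 in CD137 plus cells. The median ratio of all measured genes was 0.40 and 0.20, and the part of this in the tumour counts was not tested. Tumour cells with a value of Cd79a, Lyz2, C1qa, Mlana, Pmel or Siglech held Zeb2 in 27.1% of 48 CD137 minus cells and 17.2% of 174 CD137 plus cells. Within tumour cells that had CD8 and none of those markers, Zeb2 stood at 23.3 CPM in CD137 minus and 24.9 CPM in CD137 plus cells, a ratio of -0.09 in place of -0.07. In such tumour CD137 minus cells the Zeb2 ratio was -1.30 by Gzmk, in place of -1.47, and 1.09 by Havcr2, in place of 0.86. In such tumour CD137 plus cells it was 0.54 by Gzmk, past the limit, in place of 0.31. The lists linked to ZEB2 were not read in these cells alone.

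Genes linked to T-bet were read in cells with and without Tbx21. The counts of higher genes were 13 of 15 in tumour CD137 minus cells, 4 of 15 in tumour CD137 plus cells, 15 of 16 in spleen CD137 minus cells and 16 of 16 in spleen CD137 plus cells, where 22.9%, 8.12%, 18.1% and 24% of all measured genes were higher. In tumour CD137 plus cells the 4 were Cx3cr1 (0.75), Klrc1 (0.70) and the interleukin 18 receptor genes Il18r1 (0.68) and Il18rap (0.61). Cells with Tbx21 held values of more genes than cells without it, with medians of 1760 and 1354 in tumour CD137 minus and 1549 and 1213.5 in tumour CD137 plus cells, and the part of that in these counts was not tested. For EOMES the linked list gave 2 of 13 and 3 of 15 genes higher in tumour CD137 minus and CD137 plus cells with Eomes, against 12.2% and 5.25% of all genes, and 7 of 8 and 7 of 12 in the spleen, against 14.7% and 29.8%. For RUNX3 the raised list gave 1 of 10 in each tumour library, 2 of 7 in spleen CD137 minus and 5 of 9 in spleen CD137 plus cells, where 8.3%, 3.81%, 2.87% and 14.1% of all measured genes were higher. In all these lists, measured genes under 20 CPM in cells without the factor could be counted only as higher. The T-bet list holds Klrg1 and Cx3cr1, the EOMES list Gzmk and the RUNX3 list Itgae. Each factor by those genes is given above, so these counts are not separate evidence.

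Over the 9 combinations of library and status with at least 50 cells, each factor was set against 6556 genes. The levels most like Tbx21 were those of Klre1 (Pearson r = 0.99), Cd44, Fhl2, Lgals1 and Ccl4, and those most like Eomes were Flt3l (0.92), Mrpl18, Ccr2, Supt4a and Coro1a. Zeb2 was most like Bard1 (0.95), Lysmd3, Uba6, Fbxw11 and Gpbp1l1, and Runx3 most like Inpp5d (0.98), Morf4l1, Glg1, Ncoa7 and Bod1l. Combinations of 1 library share its cells and depth, so these values only order the genes. Among the factors themselves, r was 0.81 for Zeb2 and Runx3, 0.77 for Tbx21 and Zeb2 and 0.73 for Tbx21 and Runx3, and Eomes had -0.07 with Tbx21, -0.37 with Runx3 and -0.43 with Zeb2.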

How the data were processed

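Single cells of 4 libraries were profiled with 10x tags from the 5′ end of transcripts, per the labels' protocols, and the submitters' processing notes name Cell Ranger 3.0.2, Seurat 3.0 and the build mm10. The deposited table holds, for 6965 cells and 12763 genes, a natural log of 1 plus a whole number (largest relative deviation from whole 5.88e-15, tolerance 1e-12). No source used here says how the authors corrected the counts, so no count model was used. Cells were assigned to samples by the start of their barcode. Corrected counts were summed over cells and divided by the summed total to give CPM. Genes counted as measured reached 20 CPM and 5% of cells in 1 of the 2 groups and were above 0 in both. A measured gene under 20 CPM in 1 group could thus be called only as lower there. This holds for the listed genes and for the shares of all measured genes. Groups under 20 cells gave no ratio, and classes under 50 cells were not compared. Doublets were not called. As an alternative, cells were kept only with a Cd8a or Cd8b1 value and no marker of another cell type. The planned comparisons were kept as values with no test. Named genes are the 4 factors, the 3 status genes, up to 6 genes of a fixed list past the limit by size, and the 5 genes most like each factor. Ccr9 and Itgae were also singled out as the higher genes of the RUNX3 list, and the genes named in cells with and without a Zeb2 or Tbx21 value were chosen after their values were seen, as were those contrasts. The members and lists were chosen with earlier results of these data known. No cell was left out by thinning to 2900 corrected counts. Python 3.11.15, numpy 2.4.6, pandas 2.3.3 and scipy 1.17.1 were used. The computation of ratios and their intervals was checked on simulated counts drawn from pooled gene totals. That draw follows the model the intervals assume, with no spread between cells or libraries, so it cannot show that they hold for these data. One marker of cell state is not reported here.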

Additional observations from a re-analysis of the deposited data

Results flagged for a closer look

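Contrasts with opposite signs were picked out between both tumour and both spleen libraries, between CD137 minus and CD137 plus cells of a tissue, and between tumour and spleen cells of the same CD137 status. At least 1 value had to be 0.5 or more in size, and none of these differences was tested. Eomes between cells with and without Klrg1 had log2 ratios of 0.07 and 1.01 in tumour CD137 minus and tumour CD137 plus cells, and -0.58 and -2.72 in spleen CD137 minus and spleen CD137 plus cells. Between cells with and without Gzmk, Eomes had 1.55 in tumour CD137 minus, -0.51 in spleen CD137 minus and 0.24 in spleen CD137 plus cells. Zeb2 by Gzmk had -1.47 in tumour CD137 minus, 0.31 in tumour CD137 plus and 4.16 in spleen CD137 minus cells. Runx3 by Klrg1 had 0.26 in tumour CD137 minus, -0.71 in tumour CD137 plus and 0.54 in spleen CD137 plus cells. Runx3 between CD137 minus and CD137 plus cells had 0.21 in the tumour and -0.53 in the spleen, and between tumour and spleen it had 0.72 in CD137 minus and -0.02 in CD137 plus cells. The Klrg1 groups in the spleen hold 21 and 27 cells, in CD137 minus and CD137 plus.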

How the results depend on the processing

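Of 276 alternative values for 96 results, 239 stayed within the counting interval of the value reported, or within 1.5 times it for a count of genes, 37 moved, and 0 changed sign among those past the limit. The ratio intervals hold no pseudocount, so a larger pseudocount took ratios of low levels out of them more readily. No paired analysis was possible because each group is 1 library, and for the same reason no replicate could be left out. Equal weight per cell, class weights and CD8-gated cells moved no value. A value could still cross the limit of 0.5 within its interval, and several did. Runx3 by Havcr2 came to 0.54 in gated tumour CD137 minus cells. With a pseudocount of 10 CPM, Runx3 came to -0.48 (CD137 minus over plus, spleen), and Tbx21 to -0.49 (the same, cells with none of the 3 status genes). A pseudocount of 10 CPM moved the Zeb2 ratios to -1.36 (CD137 minus over plus, spleen), -0.83 (the same, cells with none of the 3 status genes) and 1.36 (tumour over spleen, CD137 minus), the Tbx21 ratio to 1.29 (tumour over spleen, CD137 minus), and the spleen Zeb2 ratios to 2.65 (Gzmk, CD137 minus), 3.57 (Klrg1, CD137 minus) and 3.50 (Klrg1, CD137 plus). Status by at least 2 corrected counts moved Eomes by Gzmk to 2.06 (tumour CD137 minus), Tbx21 by Klrg1 to 0.62 and Zeb2 by Klrg1 to 2.10 (tumour CD137 plus), Tbx21 by Havcr2 to 0.46, under the limit (tumour CD137 minus), and Runx3 by Havcr2 to 0.99 and 0.95, past it (tumour CD137 minus and CD137 plus). It moved the Tbx21 ratio of the Havcr2 class to -0.83, past the limit. Status groups under 20 cells at 2 counts were not run. Without the filter on low values, genes higher and lower numbered 493 and 947 (tumour CD137 minus over plus), 286 and 1607 (spleen CD137 minus over plus), 2494 and 1771 (tumour over spleen, CD137 minus), and 2274 lower (tumour over spleen, CD137 plus). With scaling to the median, 196 were higher and 124 lower in tumour CD137 minus over plus. Thinning lowered 14 of 16 shares past their intervals: Tbx21 to 18.1%, 26.7%, 6.82% and 12.5%, Eomes to 7.05%, 9.98%, 8.16% and 10.8%, Runx3 to 23.5%, 21.9%, 16.4% and 24.3% in tumour CD137 minus, tumour CD137 plus, spleen CD137 minus and spleen CD137 plus cells, and Zeb2 to 5.15% and 6.33% in tumour CD137 minus and tumour CD137 plus cells. The cause of these shifts was not tested, apart from fewer counts per cell in thinning and more genes without the filter.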

Other observations

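Cells without a Cd8a or Cd8b1 value were few, and in the spleen they held Eomes often: 8 of 20 such spleen CD137 minus cells did, at 170.3 CPM, and 2 of 4 such spleen CD137 plus cells, at 488 CPM, against 37.9 and 48.7 CPM in the gated CD8 cells of those libraries. This was not particular to Eomes. Tbx21 was held by 7 of 20 such spleen CD137 minus cells (79.5 CPM) and 2 of 4 such spleen CD137 plus cells (133 CPM). In the gated CD8 cells Tbx21 stood at 27.3 and 48.7 CPM. Runx3 was held by 6 of 20 and 2 of 4. None of these spleen cells without a Cd8a or Cd8b1 value held Zeb2, which says little in so few cells. Of the gated spleen cells, 25 of 2427 in CD137 minus (1.03%) and 31 of 469 in CD137 plus (6.61%) held it. Of all 4 factors together, 0 were found in 42.9% of tumour CD137 minus cells, 42.2% of tumour CD137 plus cells, 63.6% of spleen CD137 minus cells and 48.2% of spleen CD137 plus cells, and all 4 in 3, 5, 0 and 1 cells.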
